A study of Homo sapiens with 6 samples.

Results

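The SOX transcription factors are a family of DNA-binding proteins named after their SRY-related HMG box, and 10 genes of the family were followed here in RNA sequencing counts: SOX4, SOX5, SOX6, SOX7, SOX9, SOX11, SOX12, SOX13, SOX15 and SOX18. These genes were taken by symbol from the 17100 transcripts of the count table, all 10 were found, and they were chosen by their counts in the same contrast that is described here, with its results already known. Their differences between the groups are therefore given as a description, and the calls made for them support no conclusion about the family. Another 9 SOX genes of the table were not on this list and are given beside it, while the Y-linked founder of the family was not analysed here.

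The cells were MDA-MB-231, an established line of triple-negative breast adenocarcinoma cells that grows with mesenchymal features. Replicates 1 to 3 of the guadecitabine group (labelled SGI-110) received 1 µM of this inhibitor of DNA methyltransferases over 96 h, followed by 24 h without drug, and replicates 1 to 3 of the vehicle group received vehicle. All 6 libraries came from the same line, so that the values describe 1 cell line only. In bulk RNA, fewer cells that express a gene and less RNA per cell cannot be told apart.

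As background, the HMG box of a SOX protein binds a short A/T-rich sequence in the minor groove of DNA and bends it, and the proteins act together with partner factors that differ between tissues. Sequence similarity sorts the family into lettered groups, of which SOXC (SOX4, SOX11, SOX12), SOXD (SOX5, SOX6, SOX13), SOXE (SOX9), SOXF (SOX7, SOX18) and SOXG (SOX15) are represented on the list. In breast epithelium SOX9 is known as a factor of luminal progenitor and stem-like cells, and SOX4 is known as a target of TGF-beta signaling that takes part in epithelial-mesenchymal transition. Guadecitabine releases decitabine, which is built into DNA and depletes DNA methyltransferases, so that CpG methylation is lost as cells divide.

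Library totals lay between 8792127 counts in guadecitabine replicate 2 and 22277442 counts in vehicle replicate 3. Vehicle replicate 3 stood apart, with 20 transcripts at 0 counts against 1593 to 2517 in the other libraries. Its median was 7.10 raw counts per kb of exon over 532 genes that are named silent in vehicle here, since each had no more than 1 count in either of the other vehicle libraries, with 11 or more over the guadecitabine libraries. Results that rest on this library are given with and without it below. For the labelled line, its mesenchymal-like markers VIM, CD44, AXL and CAV1 added up to between 52224 and 65178 normalized reads per kb in every library. The markers held to be low in it, ESR1, PGR, CDH1 and EPCAM, added up to between 109 and 234, and outside vehicle replicate 3 the hormone receptor genes ESR1 and PGR had at most 1 and 0 reads. Of these 8 line markers VIM and CD44 rose, and AXL, CAV1, CDH1 and EPCAM fell. For the marker lists of other cell types, the summed levels in vehicle replicates 1 and 2, in vehicle replicate 3 and in guadecitabine were 12.3, 26.5 and 20.3 to 25.5 reads per kb for 3 endothelial genes, 0 to 0.572, 24.1 and 1.22 to 3.67 for 3 chondrocyte genes, and 9.80 to 12.9, 36.4 and 20.3 to 24.5 for 3 neural genes. They were 12.6 to 16.0, 34.7 and 55.8 to 62.0 for 3 melanocyte genes, of which PMEL rose. In vehicle replicates 1 and 2 CDH5, COL2A1, ACAN, ELAVL3, DCX, MLANA and TYR were at 0, and they are named because of that value. The reads summed in those libraries came from the other genes of these lists. The part of other cell types in the results was not tested.

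After guadecitabine, SOX4 and its relative SOX12 were lower, SOX9 was lower to a smaller degree, and SOX13 was not called. SOX15 and SOX7 were higher, with log2 fold changes of 3.52 and 4.14. Counts were fitted with edgeR's quasi-likelihood test over all 13322 genes that passed its filter on low counts, and a gene was called, and is said to have risen or fallen, at an adjusted p under 0.05. Of the 10 SOX genes, 6 passed the filter, and among these 2 were called higher, against 19.3% of all tested genes, and 3 were called lower, against 18.4% (37.7% in either direction). SOX7 passed the filter only through the guadecitabine libraries. The 4 others, SOX5, SOX6, SOX11 and SOX18, had too few counts outside vehicle replicate 3 to be tested. The plot of normalized counts by library shows the tested genes side by side. How many of all tested genes have groups that do not overlap was not counted. Such gaps are therefore given below as a description only.

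**Figure D1:**
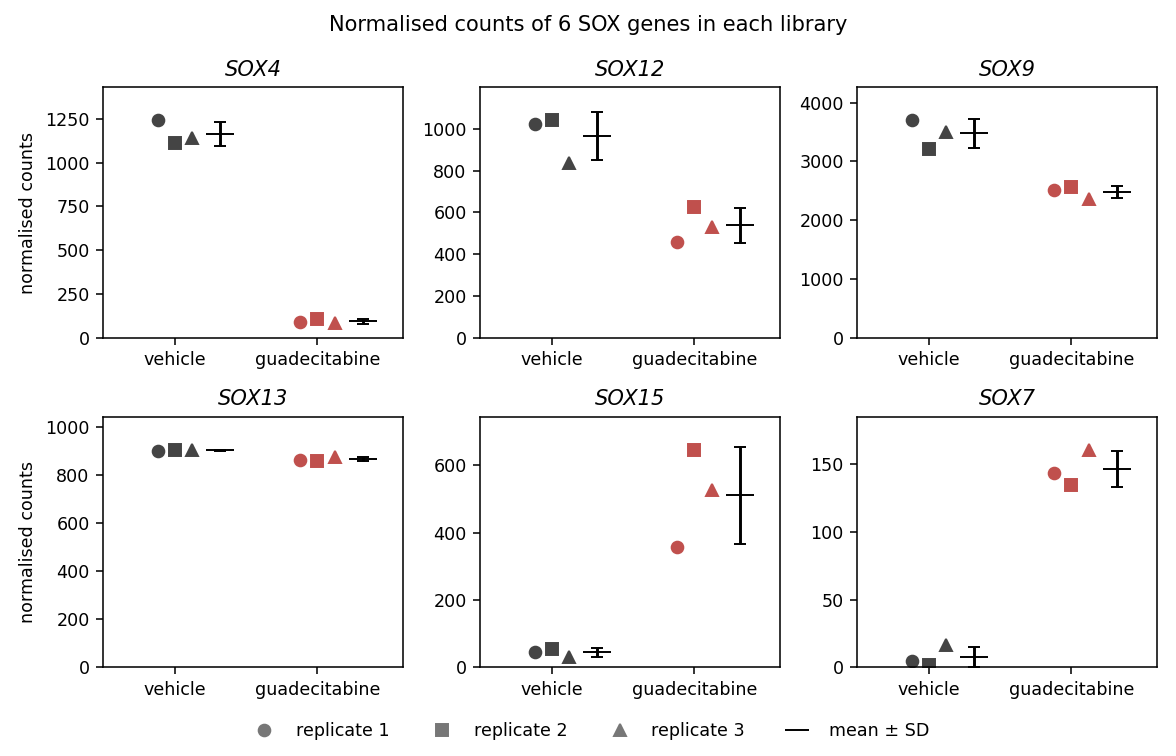
Normalized counts (vertical axis, from 0) of the 6 tested SOX genes in each vehicle and guadecitabine library; symbols mark the replicate number and bars the mean ± SD of 3 libraries. With guadecitabine, the level fitted by edgeR is 12.7-fold lower in SOX4 and 1.04-fold lower in SOX13.

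SOX4 is a single-exon gene of the SOXC group on chromosome 6 (hg19, 21593972 to 21598849, plus strand) that is active in many progenitor cells. Its raw counts were 1307, 1052 and 1478 in vehicle replicates 1, 2 and 3 and 112, 53 and 81 in guadecitabine replicates 1, 2 and 3. Normalized by edgeR's TMM method and scaled to the mean library total, these were 1243.4, 1109.6 and 1140.2 counts with vehicle and 90.6, 108 and 81.7 counts with guadecitabine. The lowest vehicle library was thus above the highest guadecitabine library, with means of 1164.4 ± 70.1 and 93.3 ± 13.2 (SD, n = 3). The log2 fold change was -3.66 (standard error 0.134, 95% interval -3.97 to -3.36), a level 12.7-fold lower, and SOX4 fell under every alternative run. In the GENCODE annotation, 3.45% of its exon bases are shared with a long non-coding RNA on the opposite strand, and no source used here says that reads were counted by strand.

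SOX12, the third SOXC gene, also has 1 exon and lies on chromosome 20 (hg19, 306215 to 310872, plus strand). It is broadly expressed and overlaps in function with SOX4 and SOX11 in the developing nervous system. Its normalized counts were 1024.6, 1043.2 and 835 in vehicle replicates 1, 2 and 3 and 461, 626 and 529 in guadecitabine replicates 1, 2 and 3. Vehicle replicate 3 was the lowest vehicle library and guadecitabine replicate 2 the highest of its group, but the groups did not overlap. The log2 fold change was -0.85 (standard error 0.143, 95% interval -1.18 to -0.53), from 967 ± 115 to 539 ± 83.0 normalized counts (SD, n = 3). SOX12 therefore fell 1.81-fold, against 12.7-fold for SOX4, with intervals of the log2 fold change that do not overlap.

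The bases upstream of both falling SOXC genes are shown because the drug acts on CpG sites. They are the 250 bases before the start listed by RefSeq (taken from the GRCh38.p14 table), matched without a difference to 1 place of GRCh37, which is the hg19 assembly: chr6:21593732-21593981 for SOX4 and chr20:305946-306195 for SOX12, both on the plus strand and written 5′ to 3′ with each CpG in capitals.
SOX4: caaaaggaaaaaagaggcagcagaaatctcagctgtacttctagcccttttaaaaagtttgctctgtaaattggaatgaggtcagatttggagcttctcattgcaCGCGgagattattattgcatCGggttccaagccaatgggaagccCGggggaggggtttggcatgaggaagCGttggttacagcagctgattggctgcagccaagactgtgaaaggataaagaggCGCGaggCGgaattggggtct
SOX12: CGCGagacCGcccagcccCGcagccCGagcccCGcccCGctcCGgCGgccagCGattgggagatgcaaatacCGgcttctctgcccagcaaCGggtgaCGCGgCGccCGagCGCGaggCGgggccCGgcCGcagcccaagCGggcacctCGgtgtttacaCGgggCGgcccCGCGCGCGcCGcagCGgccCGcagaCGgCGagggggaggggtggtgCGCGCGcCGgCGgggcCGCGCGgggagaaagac
The SOX4 stretch holds 8 CpG dinucleotides at 48.8% G and C, and the SOX12 stretch holds 42 at 79.2%. Over 35114 RefSeq stretches of the same length the median was 11 CpG, 45.9% had no more CpG than SOX4 and 99.0% no more than SOX12. The SOX4 stretch runs 10 bases past the deposited start of the transcript, and the SOX12 stretch ends 19 bases before it. SOX13, which was not called, had 8 CpG in its own stretch. The letters AACAAT, a core that SOX proteins bind, were searched on both strands and were found in neither stretch, against 8.98% of all stretches. These are descriptions of sequence, and methylation was not measured in these libraries. Stretches were at hand for 5 of the 10 genes (SOX4, SOX5, SOX6, SOX12 and SOX13).

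SOX9, the SOXE gene that directs cartilage formation and sex determination and is active in many epithelial progenitors, was the most abundant of the 10. It lies on chromosome 17 (hg19, 70117161 to 70122560, plus strand). Normalized counts were 3705.4, 3217.1 and 3504.0 in vehicle replicates 1, 2 and 3 and 2510.4, 2571.7 and 2368.8 in guadecitabine replicates 1, 2 and 3. Each guadecitabine library was below each vehicle library, with 3217.1 counts in the lowest vehicle library and 2571.7 in the highest guadecitabine library. SOX9 fell from 3475.5 ± 245 to 2483.6 ± 104 normalized counts (SD, n = 3), which is 1.40-fold or a difference of -0.49 on the log2 scale (standard error 0.101, 95% interval -0.71 to -0.26).

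SOX13, a SOXD gene that is known to modulate TCF and WNT signaling, lies on chromosome 1 (hg19, 204042246 to 204096871, plus strand). It had 901, 905 and 902 normalized counts in vehicle replicates 1, 2 and 3 and 863, 858 and 875 in guadecitabine replicates 1, 2 and 3. The guadecitabine libraries were all below the vehicle libraries, although the gap was small. The log2 fold change was -0.06 (standard error 0.0925), with a 95% interval from -0.27 to 0.15, and SOX13 was not called. Of the 6 tested genes it was the only 1 whose interval included 0.

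SOX15, the only SOXG gene, is known from embryonic stem cells and from muscle regeneration and lies on chromosome 17 (hg19, 7491498 to 7493488, minus strand). Raw counts were 49, 53 and 41 in vehicle replicates 1, 2 and 3 and 442, 318 and 523 in guadecitabine replicates 1, 2 and 3. Normalized, vehicle libraries held 46.6, 55.9 and 31.6 counts and guadecitabine libraries 357, 646 and 527. The groups were far apart, and within guadecitabine the shallowest library, replicate 2, was the highest and replicate 1 the lowest. SOX15 rose from 44.7 ± 12.2 to 510 ± 145 normalized counts (SD, n = 3), which is a difference of 3.52 on the log2 scale (standard error 0.274, 95% interval 2.90 to 4.13) or 11.4-fold. It shares 33 bases, or 2.26% of its exon bases, with the oppositely oriented MPDU1. MPDU1, named for this overlap only, was not called, with 3161.9 ± 258 normalized counts in vehicle and 3669.6 ± 522 in guadecitabine (SD, n = 3).

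SOX7, a SOXF gene with roles in endothelial and early blood development and known as a brake on WNT and beta-catenin signaling in tumors, went from near the floor of detection to a clear signal. Raw counts were 5, 2 and 21 in vehicle replicates 1, 2 and 3 and 177, 66 and 159 in guadecitabine replicates 1, 2 and 3. The normalized counts with guadecitabine were 143, 134 and 160, which are close to each other although replicate 2 had the lowest library total. Those with vehicle were 4.76, 2.11 and 16.2, so that replicate 3 alone held most of the vehicle signal. SOX7 rose from 7.69 ± 7.49 to 146 ± 13.3 normalized counts (SD, n = 3), which is a difference of 4.14 on the log2 scale (standard error 0.512, 95% interval 2.99 to 5.30). The 2 counts of vehicle replicate 2 are under a floor of 3 counts. Without vehicle replicate 3 the log2 fold change was 5.34, and with the background of that library subtracted, which removed all 21 of its SOX7 counts, it was 5.98. The background expected for SOX7 was 23.3 counts, above the 21 found, so that this library was set to 0. The vehicle level behind the 5.98 then rests on the 5 and 2 counts of vehicle replicates 1 and 2. The size of this rise therefore depends on how vehicle replicate 3 is treated. Its direction is a description only, since SOX7 was chosen by these counts and passed the filter only through the guadecitabine libraries. SOX7 lies on chromosome 8 (hg19, 10581278 to 10588084, minus strand), where the GENCODE annotation has transcripts of the neighboring PINX1 that share 39.4% of its exon bases on the same strand. PINX1, named for this overlap only, had 276 ± 25.8 normalized counts in vehicle and 467 ± 45.2 in guadecitabine (SD, n = 3) and rose by 0.76 on the log2 scale (standard error 0.127, edgeR's adjusted p = 0.00171). How reads of such joint transcripts were assigned is not stated, and their part in the SOX7 counts was not tested.

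The plot of log2 fold changes sets these values beside the SOX genes outside the list. SOX2, a pluripotency factor, had 16, 10 and 31 raw counts in vehicle and 5, 1 and 2 in guadecitabine replicates 1, 2 and 3. SOX2 passed the filter on low counts only through the vehicle libraries, the group where it was higher. It fell, with a difference of -2.50 on the log2 scale (standard error 0.716, edgeR's adjusted p = 0.0227), but it was not called when any of the guadecitabine libraries or vehicle replicate 1 was left out. SOX30, a factor of spermatid development, had 0, 0 and 13 raw counts in vehicle and 14, 11 and 18 in guadecitabine replicates 1, 2 and 3. Its log2 fold change was 2.19 (standard error 1.13, edgeR's adjusted p = 0.158), and it was called higher only without vehicle replicate 3 or with the background of that library subtracted. SOX30 could not have passed the filter without the guadecitabine libraries, the group where it was higher, so that these calls are a description only. In vehicle replicate 3 it had 3.98 raw counts per kb, below the median of 7.10 for the silent genes. Of the 9 SOX genes outside the list 2 were tested, and 1 was called lower and 0 higher (1 at an unadjusted p under 0.05). Over all genes tested, 18.4% were called lower and 19.3% higher.

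**Figure D2:**
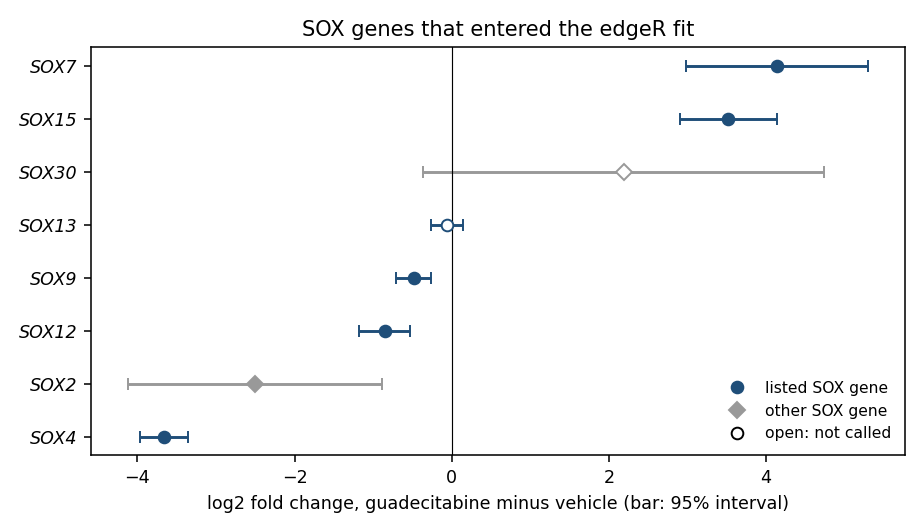
Log2 fold change of guadecitabine against vehicle (horizontal axis) with its 95% interval for the 6 tested genes of the list (circles) and 2 other SOX genes (diamonds); filled symbols were called at an adjusted p under 0.05. The values run from -3.66 in SOX4 to 4.14 in SOX7, and the interval of SOX13 and that of SOX30 include 0.

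Levels can be set against each other between genes only per length of exon, and the order given here is that of the 6 tested genes. In vehicle, SOX9 had 883 ± 62.4 normalized reads per kb (SD, n = 3), followed by SOX4 with 239 ± 14.4, SOX13 with 222 ± 0.529 and SOX12 with 208 ± 24.8. The ranges of SOX12 and SOX13 overlapped, so that their order in vehicle is not resolved. SOX15 followed with 32.8 ± 8.98 reads per kb and SOX7 with 2.35 ± 2.28. The SOX7 level in vehicle was 1.05 reads per kb without vehicle replicate 3 and 0.692 with the background of that library subtracted. The untested SOX18 and SOX6, with 6.68 ± 9.14 and 2.63 ± 4.35 reads per kb in vehicle, had means above that of SOX7. Without vehicle replicate 3 their vehicle levels were 1.43 and 0.114 reads per kb, so that SOX6 was then below SOX7. With the background of that library subtracted they were 5.10 and 0.853. In guadecitabine the order was SOX9 with 631 ± 26.4 reads per kb, SOX15 with 374 ± 106, SOX13 with 212 ± 2.20, SOX12 with 116 ± 17.8, SOX7 with 44.5 ± 4.06 and SOX4 with 19.1 ± 2.72, and no ranges of neighbors overlapped. SOX4 thus went from the second to the sixth place and SOX15 from the fifth to the second.

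**Figure D3:**
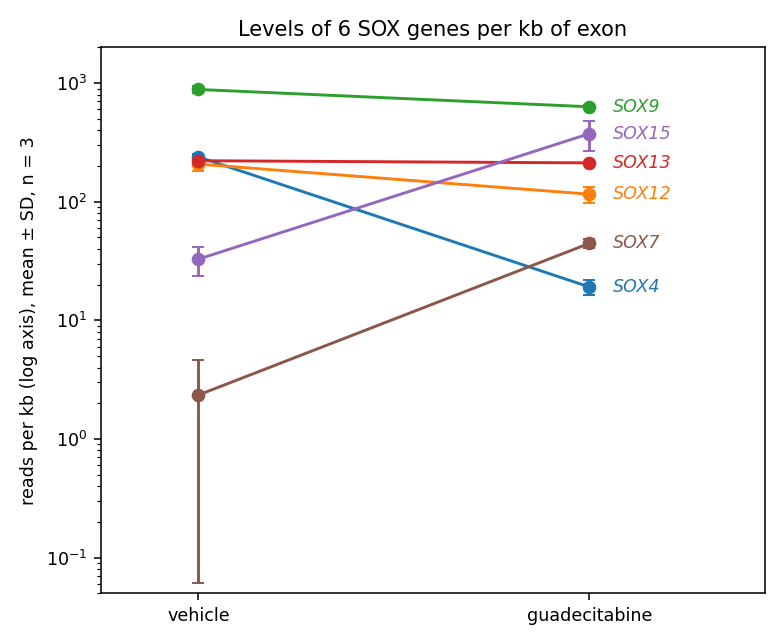
Mean ± SD of 3 libraries in normalized reads per kb of exon (vertical log axis) for the 6 tested SOX genes in vehicle and guadecitabine. The lines of SOX4 (239 to 19.1 reads per kb) and SOX15 (32.8 to 374) cross, while SOX9 is at the top in both groups.

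The sum over the 10 genes was 1675.9, 1533.8 and 1587.2 normalized reads per kb in vehicle replicates 1, 2 and 3 and 1276.0, 1538.1 and 1385.7 in guadecitabine replicates 1, 2 and 3. Guadecitabine replicate 2 was above vehicle replicate 2, so that the groups overlapped. SOX9 made up 55.2% ± 1.64 of this sum in vehicle and 45.3% ± 4.09 in guadecitabine (SD, n = 3). The share of SOX4 was 14.9% ± 0.254 in vehicle and 1.37% ± 0.137 in guadecitabine, and that of SOX15 was 2.06% ± 0.606 and 26.4% ± 5.30. SOX12 went from 13.0% ± 1.66 to 8.23% ± 0.492, SOX13 from 13.9% ± 0.647 to 15.3% ± 1.47 and SOX7 from 0.147% ± 0.144 to 3.20% ± 0.474. The SOX7 share was 0.0866% and 0.0420% in vehicle replicates 1 and 2, and 0.311% in vehicle replicate 3.

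The genes SOX5, SOX6, SOX11 and SOX18 gave almost no reads outside vehicle replicate 3. SOX5 and SOX6, the SOXD partners of SOX9 in cartilage, had 26 and 87 raw counts in that library, and their highest counts elsewhere were 1 and 7. SOX11, the SOXC gene of neural progenitors, had 51 raw counts there and at most 3 elsewhere. SOX18, a SOXF gene of blood and lymph vessels, had 38 there and at most 4 elsewhere. In vehicle replicate 3 these counts were 6.05 per kb for SOX5, 9.91 for SOX6, 5.85 for SOX11 and 22.3 for SOX18, beside the median of 7.10 for the silent genes and a range of 4.37 to 10.9 for the middle of their distribution (25th to 75th percentile). SOX18 was above this range, at the 93.6th percentile of the silent genes. A change of these genes was not detectable at this depth, and with no filter none of them was called by edgeR. Without vehicle replicate 3, SOX5 and SOX11 would hold 1 and 3 counts in all, under the smallest total of 11 found in the table. The untested SOX genes outside the list were SOX1, SOX3, SOX8, SOX10, SOX14, SOX17 and SOX21, and each of these 7 was likewise highest in vehicle replicate 3, with 9 to 42 raw counts there and at most 13 in any other library. SOX21, a factor of neural progenitors, differed from the others in that its groups did not overlap, with 9, 13 and 42 raw counts in vehicle and 0, 1 and 2 in guadecitabine replicates 1, 2 and 3. It was called lower by edgeR without vehicle replicate 1 (log2 fold change -4.18, adjusted p = 0.0219) and without guadecitabine replicate 2 (log2 fold change -4.14, adjusted p = 0.0440), and in the fit of all libraries it did not pass the filter. In those fits SOX21 passed only through vehicle libraries, the group where it was higher, so that the calls are a description only. Of its 42 counts in vehicle replicate 3, 20.7 were expected from the background of that library.

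**Figure D4:**
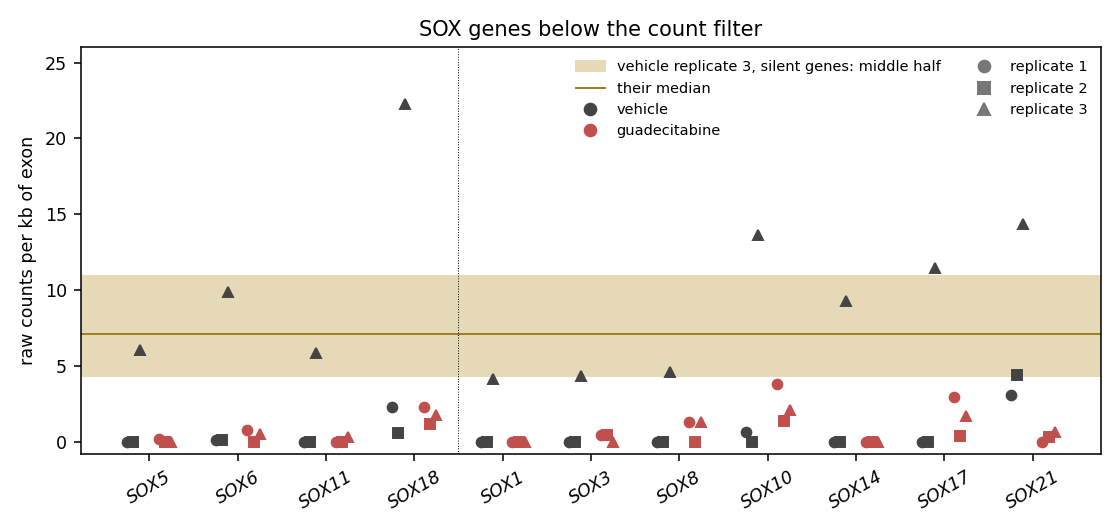
Raw counts per kb of exon (vertical axis) in each library for the 11 SOX genes that did not pass the count filter, 4 from the list on the left of the dotted line and 7 others on the right; the band shows the 25th to 75th percentile of the silent genes in vehicle replicate 3. Every gene is highest in vehicle replicate 3 (dark triangles), with 22.3 counts per kb in SOX18.

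Genes tied to the SOX proteins were counted in lists that were set by known function, and the calls are adjusted over all genes tested, of which 18.4% fell and 19.3% rose. Among 18 relatives with an HMG box and cofactors, 15 were tested, 4 fell and 0 rose (7 at an unadjusted p under 0.05), with a median log2 fold change of -0.24 against 0.02 over all genes. The fallen genes with the largest change were MEF2C, a partner of SOX18, with a log2 value of -1.59 (standard error 0.274, edgeR's adjusted p = 0.0019), and TCF7L2, the WNT effector that SOX proteins can antagonize, with -0.67 (standard error 0.121, edgeR's adjusted p = 0.00252). The third was CIC, an HMG-box repressor downstream of RAS signaling, with -0.46 (standard error 0.129, edgeR's adjusted p = 0.02). MEF2C and TCF7L2 were called with each library left out in turn, whereas the list held 2 fallen genes without vehicle replicate 1, without vehicle replicate 2 or without guadecitabine replicate 3 and 7 without guadecitabine replicate 1. CIC was no longer called without vehicle replicate 1, vehicle replicate 2, guadecitabine replicate 1 or guadecitabine replicate 3. TCF7 was the 1 gene of the list called higher when vehicle replicate 3 was left out. DESeq2, run as another tool, called 0 genes of this list higher.

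Of 17 names of cartilage genes that SOX9 activates with SOX5 and SOX6, 16 were in the table (the last is a second name of a listed gene) and 10 were tested, of which 3 rose, 1 fell and 6 were not called, beside 19.3% of all genes tested that rose and 18.4% that fell. Their median log2 fold change was 0.42 against 0.02 over all genes. The risen genes were COL9A3 and COL9A2, chains of type IX collagen, with log2 fold changes of 1.66 (standard error 0.475, edgeR's adjusted p = 0.023) and 0.58 (standard error 0.177, edgeR's adjusted p = 0.03), and FGFR3, a growth factor receptor, with 1.25 (standard error 0.217, edgeR's adjusted p = 0.00196). WWP2, a ubiquitin ligase whose gene hosts a cartilage microRNA, fell with -0.69 (standard error 0.106, edgeR's adjusted p = 0.00108). The core cartilage genes COL2A1 and ACAN had 0 reads in 5 libraries and 60 and 50 raw counts in vehicle replicate 3. With vehicle replicate 1, vehicle replicate 2, guadecitabine replicate 2 or guadecitabine replicate 3 left out, 1 gene of the list, FGFR3, was called higher. Without vehicle replicate 3 the genes called higher were COL9A3, FGFR3 and HAPLN1, a link protein of the cartilage matrix, and COL9A2 was not called. HAPLN1 was also called higher by DESeq2 and with the background of vehicle replicate 3 subtracted. It had 1, 0 and 9 raw counts in vehicle and 21, 10 and 13 in guadecitabine replicates 1, 2 and 3. HAPLN1 thus passed the filter only through the guadecitabine libraries, the group where it was higher, and its calls are a description only.

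Of 6 genes known as targets of SOX4 or SOX11, 5 were tested, and 1 fell and 0 rose (2 at an unadjusted p under 0.05), beside 18.4% and 19.3% of all genes tested. The fallen gene was NES, an intermediate filament gene of progenitors, at -0.46 on the log2 scale (standard error 0.154, edgeR's adjusted p = 0.0411). Without vehicle replicate 1, vehicle replicate 2 or guadecitabine replicate 3, 0 genes of this list were called, and without guadecitabine replicate 1 EZH2 and SEMA3C were called lower in place of NES. DESeq2 called 2 of them lower and 0 higher. With DESeq2 the genes called lower were NES and EZH2.

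Of 8 targets of the SOXF proteins, known mostly from endothelium, 4 were tested, and 2 rose and 1 fell, beside 19.3% and 18.4% of all genes tested. VCAM1, a cell adhesion molecule, rose by 2.04 on the log2 scale (standard error 0.193, edgeR's adjusted p = 6.44e-05), and ROBO4, a guidance receptor of endothelial cells, by 1.14 (standard error 0.109, edgeR's adjusted p = 6.62e-05). NOTCH1, a receptor of cell fate decisions, fell with -0.55 (standard error 0.101, edgeR's adjusted p = 0.00268). These 3 genes were called with each library left out in turn, and without vehicle replicate 3 DLL4, a NOTCH ligand, was called higher as well. Whether any gene of these lists followed the level of a SOX factor was not tested.

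**Figure D5:**
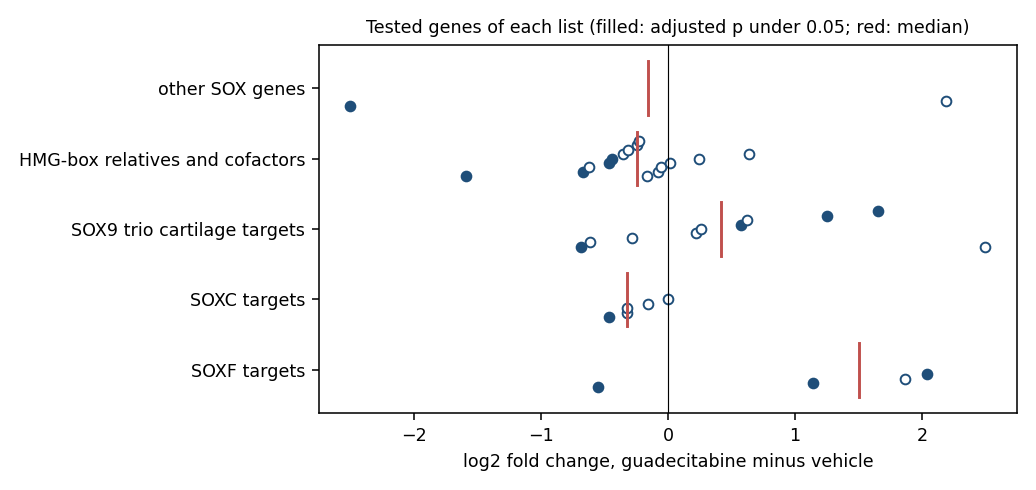
Log2 fold change of guadecitabine against vehicle (horizontal axis) for each tested gene of the 5 lists (rows); filled points were called at an adjusted p under 0.05 and red lines mark the median of each list. The medians run from -0.32 in the SOXC targets to 1.50 in the SOXF targets, over 5 and 4 tested genes.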

How the data were processed

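RNA sequencing of 3 vehicle and 3 guadecitabine libraries was processed, and groups and replicate numbers came from the titles of the samples. Per the labels and methods, the authors aligned reads with STAR 2.3.1z to hg19, used iRNA-seq to count reads in the exons of each RefSeq transcript, and deposited these raw counts without normalization. They also deposited rlog values of DESeq2 on the log2 scale, mean signal per gene, and, from their own comparison, a log2 fold change, test score and p-value, none of which was used here. Depth ranged from 8792127 to 22277442 counts. A count of 3 was taken as the floor in a library, which covers counting error only, since reads are not independent molecules.

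Counts of 17100 transcripts were fitted with edgeR 4.0.16 in R 4.3.3 (TMM, filterByExpr with a minimum count of 10, quasi-likelihood test, Benjamini-Hochberg adjustment over 13322 genes, threshold 0.05). Standard errors were the log2 fold change over the root of F, and 95% intervals used the t distribution with the fit's degrees of freedom. The fit was tested on simulated data. No 2 libraries had identical counts (0 pairs). The methods speak of independent experiments, but p-values measure only the spread between these libraries. The members and gene lists were chosen with earlier results of these data known. Named were all members and, per list, up to 3 called genes in each direction with the largest change. Genes named outside this rule (overlapping genes, genes at 0 and genes called only without a library) were chosen after their values were seen. 1 marker list is not reported here. Alternatives were DESeq2 1.42.0 (Wald test and size factors), library totals, other filters, a replicate block, subtraction of a background from vehicle replicate 3, and each library left out. Exon overlaps came from GENCODE release 44 on GRCh37 and upstream sequences from RefSeq, read with Python 3.11.15.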

Additional observations from a re-analysis of the deposited data

How the results depend on the processing

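The 6 tested SOX genes kept their direction and their side of the threshold in all 77 values under the alternatives. The log2 fold change ranged over them from -3.75 to -3.58 for SOX4, -0.96 to -0.75 for SOX12, -0.53 to -0.43 for SOX9, -0.08 to -0.03 for SOX13, 3.30 to 3.73 for SOX15 and 3.75 to 5.98 for SOX7, and the highest value of SOX7 came from subtraction of the background. With at least 10 counts required in every library SOX7 was not tested, so that 1 gene of the list was called higher. With the replicate block the values were -3.67 for SOX4 and 4.35 for SOX7, and the block ended the call of SOX2 (0 other SOX genes lower), changed no other SOX call and added DLL4 to the risen SOXF targets. The numbers were not taken as pairs, since, after removal of the group means, libraries that share a number correlated at -0.0376 to 0.0383, and not every library correlated best with its own number. Over all genes, leaving out libraries gave 1706 to 3002 genes higher and 1629 to 2575 lower, the lowest without guadecitabine replicate 3. Among the other SOX genes 0 were lower with no filter and with at least 10 counts in every library, and 1 was higher with the background subtracted. With libraries left out, 0 to 1 were higher and 0 to 1 lower, the lower gene being SOX21 and not SOX2 without vehicle replicate 1 and without guadecitabine replicate 2. Of the HMG-box relatives and cofactors 1 was higher with no filter and with the background subtracted, and leaving out libraries gave 0 to 1 higher and 2 to 7 lower. Leaving out libraries gave 1 to 3 cartilage genes higher. Of the SOXC targets, 2 were lower with DESeq2's Wald test and with the background subtracted, 0 with no filter, and 0 to 2 with libraries left out. The summed level of the 10 genes stayed within 1 SD under the alternatives run for it, which were other size factors, library totals, the subtracted background and each library of the group left out. Library depth limits the values of SOX7 in vehicle and of the 4 untested genes.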

Other observations

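The tested genes that lie nearest to the 6 tested SOX genes on either side were counted after the data were seen, 12 in all, at distances from 0 to 2804 kb. Of these 6 were called, against 37.7% of all genes tested, and all 6 were called in the direction of their SOX gene. Over all genes tested, 19.3% were called higher and 18.4% lower. The called genes include PINX1, whose transcripts share exon bases with SOX7. Called or not, 9 of the 12 had the sign of their SOX gene, where SOX13, which was not called, was counted with the sign of its estimate. Within 100 kb there were 7 neighbors, of which 3 were called, and the other called genes lay between 361337 and 2578690 bases away. This is a description of few genes, and whether neighbors moved with the SOX genes was not tested.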
